A study of Mus musculus with 6 samples.

Results

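The unfolded protein response and the chaperones of the endoplasmic reticulum (ER) were examined through 34 listed genes of the 18194 genes that the arrays name. Each gene was read from the probe set with the highest mean over the 6 arrays, among those annotated to that gene alone, and all 34 had such a probe set. RNA came from whole colon of C57BL/6 mice that were 6 to 8 weeks old and had drunk 2.5% dextran sodium sulfate (DSS), which injures the colonic epithelium, with tissue taken on day 7. The 3 deficient mice were PPAR g fl/fl with Cre driven from the lysozyme M promoter, which is active in macrophages and neutrophils. Their 3 control littermates carried the same floxed alleles without Cre. All 6 animals therefore had floxed Pparg and DSS colitis, no untreated colon is included, and any effect of Cre itself cannot be told apart from loss of PPAR gamma. The comparison asks how these genes differed in the inflamed colon when the receptor was lost from myeloid cells. Values are log2 expression summaries from 1 array per mouse.

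The ER folds secreted and membrane proteins, and a secretory epithelium such as that of the colon, rich in mucus-producing goblet cells and underlain by antibody-secreting plasma cells, depends on it. When unfolded proteins accumulate, the sensors IRE1, ATF6 and PERK respond. IRE1 splices the Xbp1 transcript, ATF6 is cleaved into a transcription factor, and PERK slows translation while favouring ATF4 and, downstream of it, CHOP. The targets of XBP1 and ATF6 are chaperones, disulfide isomerases and degradation factors, many of them through a promoter motif called the ER stress response element.

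That element could be read in the promoter windows of the members. Some members that spread widely over the control arrays carry it, such as Creld2 and Syvn1 (ranges 2.26 and 1.45). Sdf2l1, Dnajb9 and Edem1 spread nearly as much as Syvn1 (1.41, 1.40 and 1.38), and their windows did not hold it. Canx and Calr carry it and spread little (0.28 and 0.55). Ern2 and Manf (2.40 and 2.28) had no window to read. RefSeq windows on GRCm38.p6, from 250 bases before to 50 after the annotated start, were found by symbol for 28 of the 34 genes. The element ERSE, searched as CCAAT and CCACG with 9 bases of any kind between them on either strand, was present in 9 of these 28 windows, or 32.1%, against 0.119% of 32851 windows over the genome. ERSE-II, ATTGG and CCACG with 1 base between them on either strand, was present in 2 of them, those of Dnajb11 and Herpud1, against 0.0365% of all windows. The motif TGATGNAA of the amino acid response (CARE, either strand) was in the windows of Herpud1, Trib3, Asns and Chac1, a share of 14.3% against 3.97%. The unfolded protein response element TGACGTGG was in none of the 28 and in 0.676% of all windows. These are matches of letters, not measured binding sites. The members were listed as genes of this response, so a higher share of its elements among them is no result of the arrays.

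The 250 bases before the start of Hspa5, at chr2:34771840-34772089 on the plus strand, hold 1 exact match to ERSE as searched. Stretches that differ from it by a letter were not counted. The fixed bases of the match are in capitals.
Hspa5: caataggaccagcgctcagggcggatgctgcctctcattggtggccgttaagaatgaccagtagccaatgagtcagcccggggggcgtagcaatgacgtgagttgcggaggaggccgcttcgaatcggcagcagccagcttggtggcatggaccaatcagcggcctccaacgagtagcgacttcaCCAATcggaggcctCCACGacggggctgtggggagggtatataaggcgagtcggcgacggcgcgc

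In the other windows the element lay at varied distances and on either strand. The stretches below are written in the direction in which the element reads, again with its fixed bases in capitals. Those of Pdia6 (chr12:17266483-17266517), Dnajc3 (chr14:118937819-118937853) and Syvn1 (chr19:6046524-6046558) are on the plus strand, which is that of the gene. Canx (chr11:50325792-50325826) and the first stretch of Hsp90b1 (chr10:86705630-86705664) are on the minus strand, also that of the gene. The second stretch of Hsp90b1 (chr10:86705525-86705559) and that of Creld2 (chr15:88819512-88819546, minus) run against the gene.
Pdia6: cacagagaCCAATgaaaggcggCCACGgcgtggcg
Dnajc3: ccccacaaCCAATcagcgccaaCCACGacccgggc
Syvn1: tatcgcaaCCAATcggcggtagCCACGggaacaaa
Canx: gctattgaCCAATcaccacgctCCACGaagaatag
Hsp90b1 first: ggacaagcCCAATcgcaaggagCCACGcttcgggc
Hsp90b1 second: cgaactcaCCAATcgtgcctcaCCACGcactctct
Creld2: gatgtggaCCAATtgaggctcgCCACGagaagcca

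**Figure D1:**
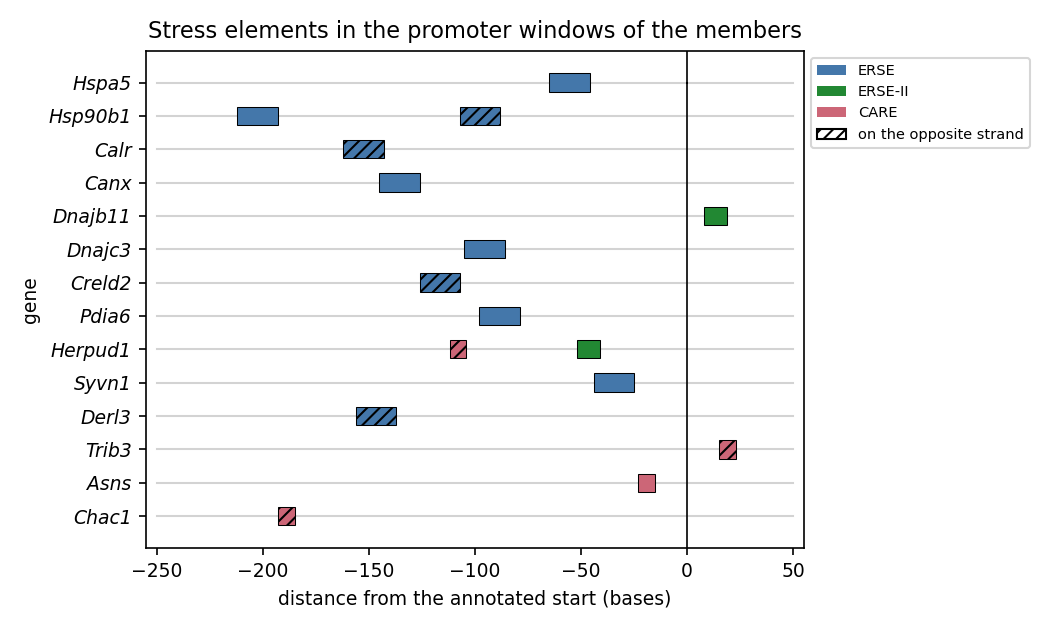
Position of each matched element, in bases from the annotated start, for the 14 members whose window held one (colours: ERSE, ERSE-II and CARE; hatching: opposite strand). All 10 ERSE matches lie before the start, and Hsp90b1 has 2.

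The arrays themselves set limits on every comparison. On control replicate 1 and deficient replicate 3 the small intestine gene Apoa1 was at 15.23 or more, against at most 7.38 on the other 4 arrays, and the colonic gene Car1 at 7.02 or less, against at least 13.60. These 2 arrays with small intestine genes are called Apoa1-high here. Each genotype held 1 of them, so values are also given without both and between them. The 2 were not alike, since Car1 was at 2.83 on control replicate 1 and at 7.02 on deficient replicate 3. A value between them compares 1 array with 1, and genotype cannot be told apart there from such differences in tissue. Pparg itself read 5.28, 9.91 and 9.54 in control and 8.77, 8.23 and 4.15 in deficient samples. These overlap through the Apoa1-high arrays, at 5.28 in control and 4.15 in deficient samples. On the other 4 arrays both deficient values were below both control values. The signal is that of whole tissue, so it does not check the deletion in myeloid cells. Lyz2, the gene of lysozyme M, whose promoter drives Cre here, read 12.32, 11.79 and 12.19 in control and 6.80, 6.24 and 10.39 in deficient samples. Every deficient array was below every control array for Lyz2. Xist, a transcript of female cells, was at 12.11 on control replicate 2 and at the floor of 2.25 on the other 5 arrays. In whole tissue, more RNA per cell and more cells of a type cannot be told apart.

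Most members were slightly higher in the deficient colon, and none passed the test across all genes. Of the 34, 31 were tested, being above log2 4 on at least 3 arrays, and 25 of these 31 were higher and 6 lower. Their median log2 difference, deficient minus control, was 0.27, against 0.057 over the 10491 genes tested, of which 57% were higher. At a limma Benjamini-Hochberg adjusted p under 0.05, 0 of the 31 members and 0 of all genes (0%) were called, and the smallest adjusted p of a member was 0.667. At an unadjusted p under 0.05, 3 members were higher (Pdia6, Sec61b and Sec61a1) and 0 lower, or 9.68% of the 31, where 5.1% of all genes were higher and 2.36% lower. The share of all genes under that threshold, in either direction, moved with the arrays used and is given in brackets. That count of 3 was 0 without control replicate 2 (4.15%) or without deficient replicate 2 (4.11%). It was 1 without control replicate 3 (4.59%), deficient replicate 1 (5.52%) or deficient replicate 3 (10.0%), and 7 without control replicate 1 (11.4%). The groups did not overlap for 5 members, all higher in deficient samples (those 3 with Ssr1 and Pdia4), while 9.36% of all genes were separate and higher and 4.15% separate and lower. With 3 arrays a group, the 95% interval of a member's difference was wide, reaching from -0.37 to 1.18 for Hspa5.

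**Figure D2:**
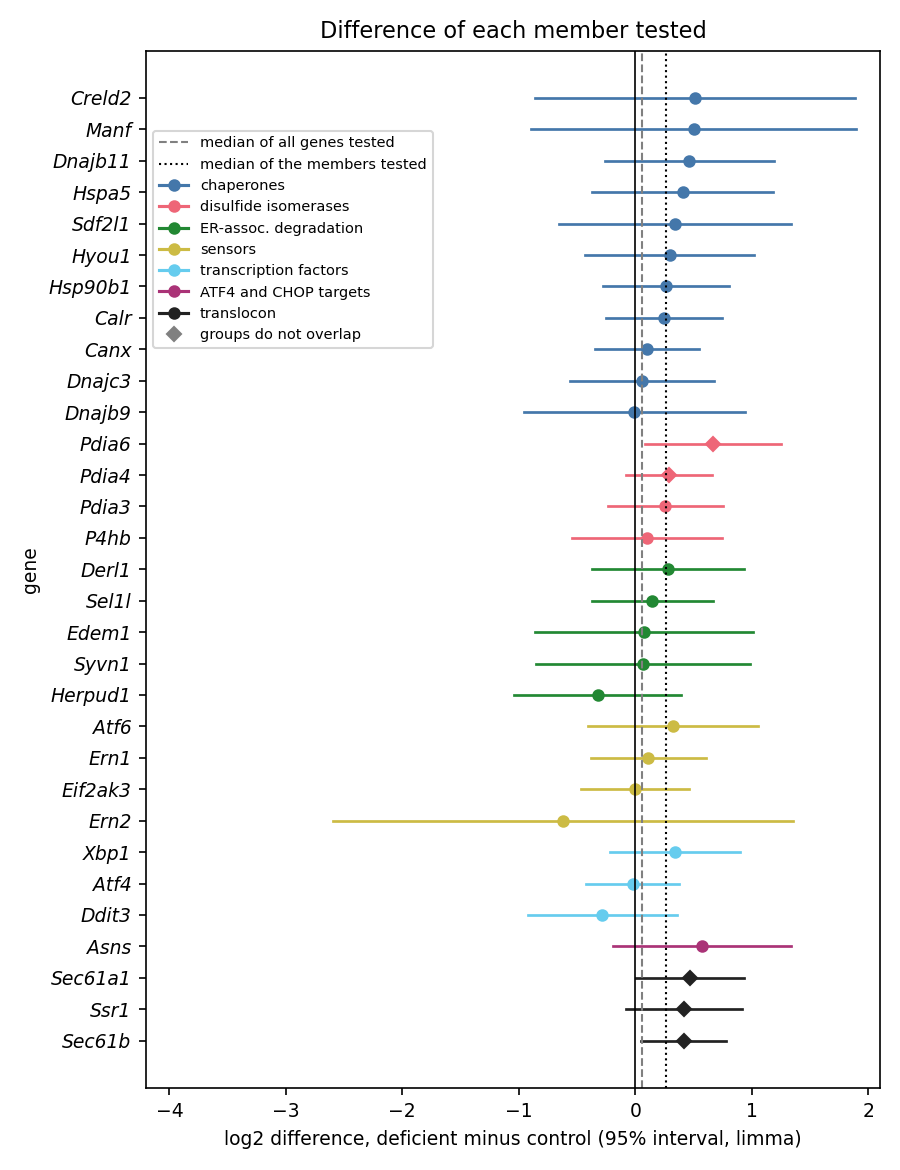
Log2 difference (deficient minus control) of the 31 members tested, with 95% intervals from limma, coloured by role. Diamonds mark the 5 members whose groups do not overlap, and the dashed and dotted lines mark the medians of all genes (0.057) and of the members (0.27).

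The higher median came with low levels of these genes on control replicate 2 and, less so, on control replicate 3. Of the 31 members, 28 and 24 were below their own mean over the 6 arrays there, against 4 on control replicate 1. The deficient arrays had 4, 12 and 7. The median deviation from that mean was 0.25, -0.40 and -0.17 on the control arrays, against -0.050, -0.055 and 0.0068 over all genes. Control replicate 2 was the lowest of the 6 arrays for 21 of the 31 members (67.7%), whereas it was lowest for 24.1% of all genes. Control replicate 1, an Apoa1-high array, was the highest for 14 of the 31 (45.2%, against 17.2% of all genes). The members therefore spread more widely among controls, with a median range of 0.73, than among deficient samples at 0.33, while the same medians over all genes were 0.62 and 0.58. Without control replicate 2 the median difference of the members was 0.065 (18 of 31 higher), close to the 0.046 of all genes in the same arrays. Without control replicate 1 it was 0.43. Control replicate 2 was also the only array with high Xist. With 1 such array, Xist cannot be told apart from any other trait of that sample, and its part was not tested. Without both Apoa1-high arrays the median was 0.40 (29 of 31 higher, against 0.085 for all genes), and between those 2 arrays it was -0.14 (20 of 31 lower).

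**Figure D3:**
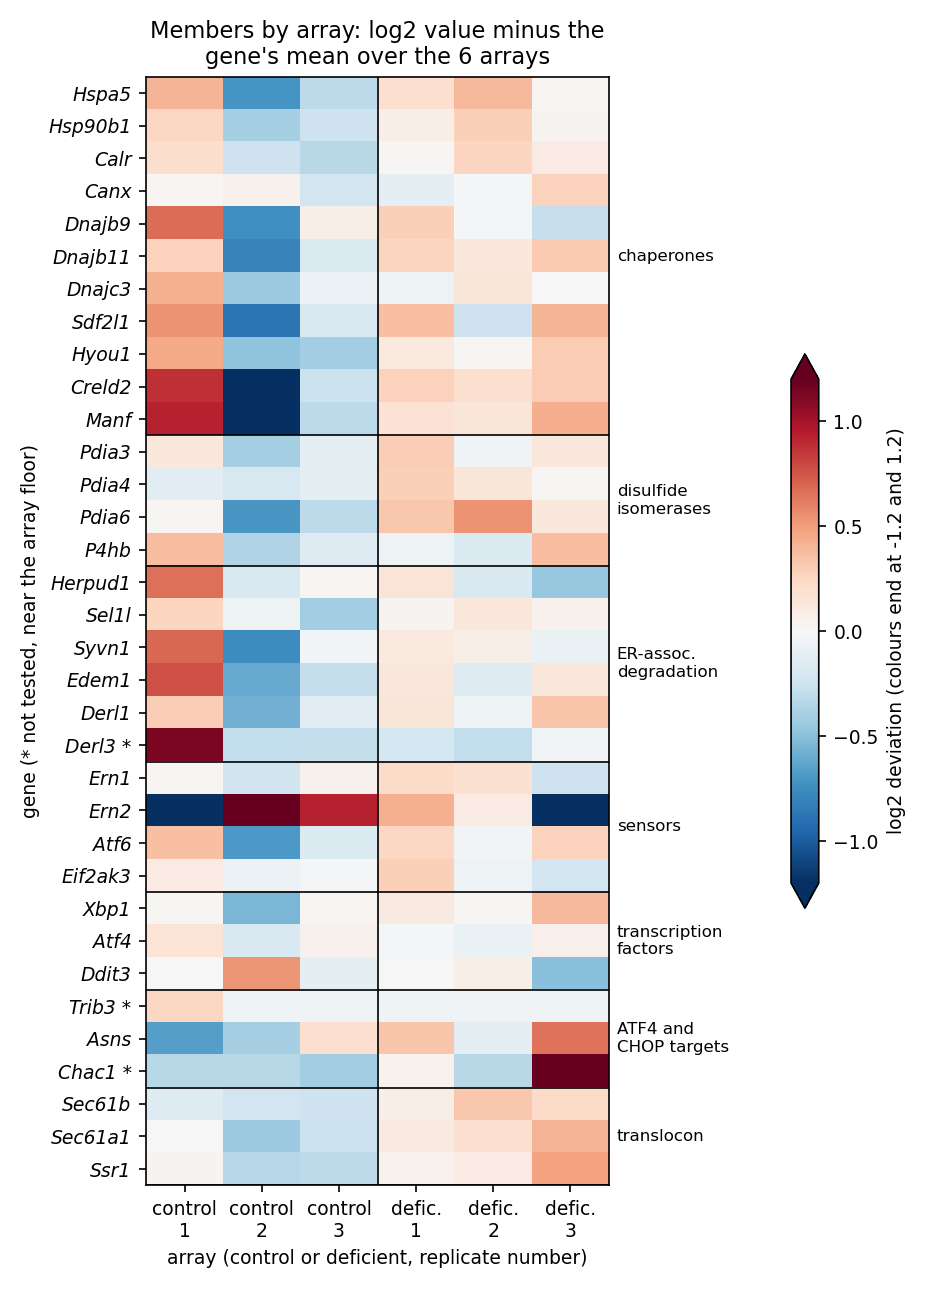
Log2 value of each of the 34 members on each array minus the gene's mean over the 6 arrays, with red above and blue below that mean. Control replicate 2 is the lowest array for 21 of the 31 members tested and control replicate 1 the highest for 14.

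The 3 translocon genes differed by similar amounts on the 4 choices of arrays compared below. The translocon is the channel through which new proteins enter the ER. Sec61a1, its pore-forming subunit, read 11.93, 11.48 and 11.67 in control and 12.03, 12.12 and 12.33 in deficient samples. Every deficient array was above every control array. The difference was 0.47 with a standard error of 0.19 (95% interval 0.0053 to 0.93, limma adjusted p 0.668). Sec61b, the beta subunit, read 12.30, 12.23 and 12.21 in control and 12.52, 12.77 and 12.69 in deficient samples. Those groups were separate as well, with SDs of 0.049 and 0.13 and a difference of 0.41 ± 0.15 (SE, limma adjusted p 0.667). Ssr1, a subunit of the translocon-associated protein complex, read 10.54, 10.17 and 10.20 against 10.55, 10.61 and 10.99. Its groups touched, with control replicate 1 just under deficient replicate 1, and the difference was 0.42 ± 0.20 (SE, limma adjusted p 0.699). Further probe sets of the same genes gave the same separation for 2 of the other 3 of Ssr1 (differences 0.50 and 0.41) and 2 of the other 5 of Sec61a1 (0.32 and 0.42). The dimmer probe sets of Sec61a1 ranged from -0.16 to 0.40.

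Between the 2 Apoa1-high arrays the differences of Sec61a1, Sec61b and Ssr1 were 0.40, 0.39 and 0.44. Without those arrays they were 0.50, 0.43 and 0.40, and without control replicate 2 they were 0.36, 0.41 and 0.35.

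**Figure D4:**
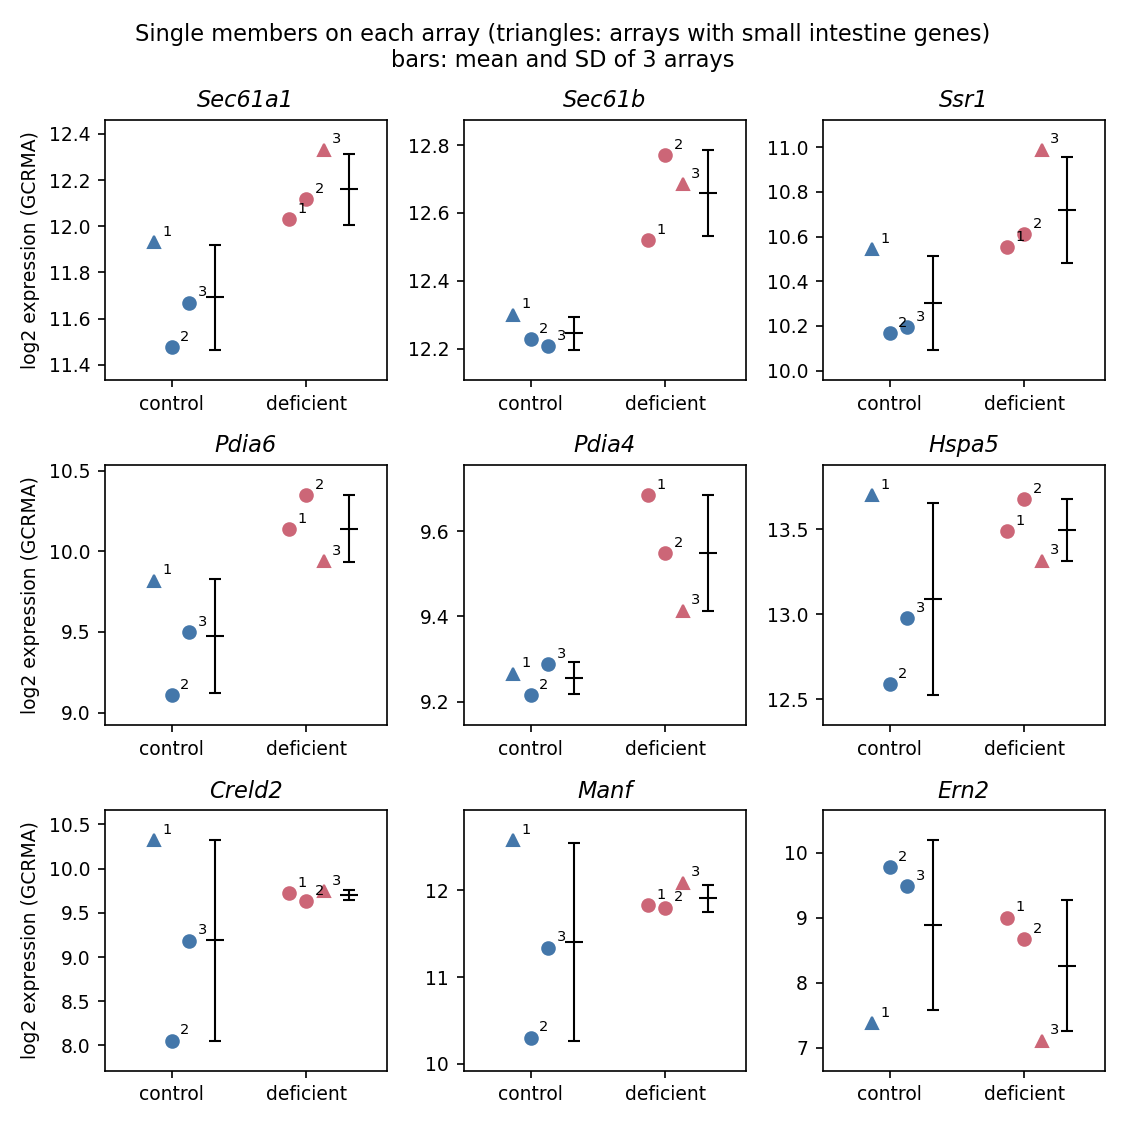
Log2 expression of 9 members on each array, with replicate numbers beside the points, triangles for the 2 Apoa1-high arrays, and the mean and SD of 3 arrays at the right of each group. The 5 genes from Sec61a1 to Pdia4 are separate between groups, while for Creld2 and Manf the deficient arrays lie inside the wide range of the controls.

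All 4 protein disulfide isomerases, which form and rearrange disulfide bonds, were higher in the deficient colon, with a median of 0.28. That median was 0.20 without control replicate 2 and 0.065 between the 2 Apoa1-high arrays, each with 3 of 4 higher. Pdia6 showed the largest difference among the members tested. It read 9.82, 9.11 and 9.50 in control and 10.14, 10.35 and 9.94 in deficient samples. No deficient array reached down to a control array, and the difference was 0.67 ± 0.24 (SE, 95% interval 0.081 to 1.25, limma adjusted p 0.667). It was 0.48 without control replicate 2 and 0.94 without the Apoa1-high arrays, but 0.12 between them. Pdia4 read 9.27, 9.21 and 9.29 against 9.68, 9.55 and 9.41, again separate, with a difference of 0.29 ± 0.15 (SE, limma adjusted p 0.708). Pdia3, which acts on glycoproteins with calnexin and calreticulin, was higher by 0.26 and P4hb by 0.098, with overlapping groups.

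Among 11 chaperones and cochaperones, 10 were higher and none was separate between groups. Their median difference was 0.30. Without control replicate 2 it was 0.13, with 6 of 11 higher, and between the 2 Apoa1-high arrays it was -0.21, with 2 of 11 higher. Hspa5 encodes BiP, the main Hsp70 of the ER and the protein that holds the sensors inactive. It read 13.70, 12.59 and 12.98 in control and 13.49, 13.68 and 13.32 in deficient samples. Control replicate 1 was above all 3 deficient arrays and the other controls below them, so the groups overlapped (0.41 ± 0.31, SE, limma adjusted p 0.778). The difference was 0.16 without control replicate 2, 0.80 without the Apoa1-high arrays and -0.39 between them. Hsp90b1, the ER form of Hsp90, read 12.79, 12.15 and 12.30 against 12.62, 12.83 and 12.58, a difference of 0.27 ± 0.22 (SE, limma adjusted p 0.789). It had the same order of arrays as Hspa5 in the controls, and was at 0.50 without the Apoa1-high arrays and -0.21 between them.

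Creld2 and Manf, small secreted proteins induced by ER stress and chosen here after their values were seen, showed the pattern of the control arrays most strongly. Creld2 read 10.32, 8.06 and 9.18 in control samples but 9.72, 9.63 and 9.74 in deficient ones. Manf read 12.58, 10.30 and 11.34 against 11.84, 11.80 and 12.09. The control SDs, 1.13 and 1.14, exceeded the deficient SDs of 0.060 and 0.16, and the differences of 0.51 and 0.50 were smaller than the standard errors of 0.56 and 0.57. Without control replicate 2 both were near 0, at -0.053 and -0.052. The cochaperones Dnajb11, Sdf2l1 and Dnajc3 differed by 0.47, 0.34 and 0.058, and Dnajb9 by -0.0069. The large chaperone Hyou1 differed by 0.30. The lectins calreticulin (Calr) and calnexin (Canx) differed by 0.25 and 0.10.

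Genes of ER-associated degradation, which returns misfolded proteins to the cytosol, were less uniform. Of 5 tested, 4 were higher, with a median of 0.074, and none had separate groups. Derl1, a channel component, was higher by 0.28 and Sel1l, the adaptor of the ligase Syvn1, by 0.15. Syvn1 and the mannosidase-like Edem1 differed by 0.066 and 0.074 with standard errors of 0.37 and 0.38. Other probe sets that passed the filter had the opposite sign for Derl1 (-0.24), Sel1l (-0.084) and Syvn1 (-0.18). Over all members, signs differed among the probe sets of 6 of the 19 genes with more than 1. Herpud1, a membrane component of the same ligase complex, was lower at -0.32 ± 0.29 (SE, limma adjusted p 0.805). Between the 2 Apoa1-high arrays this role had a median of -0.64, with 4 of 5 lower, and without them 0.40, with all 5 higher. Without control replicate 2 it was -0.21, with 2 of 5 higher. The direction of this role therefore depended on the arrays used. Derl3, a derlin abundant in secretory cells, was not tested because it was above log2 4 on control replicate 1 alone, at 4.24 against 2.81 to 3.08 elsewhere.

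**Figure D5:**
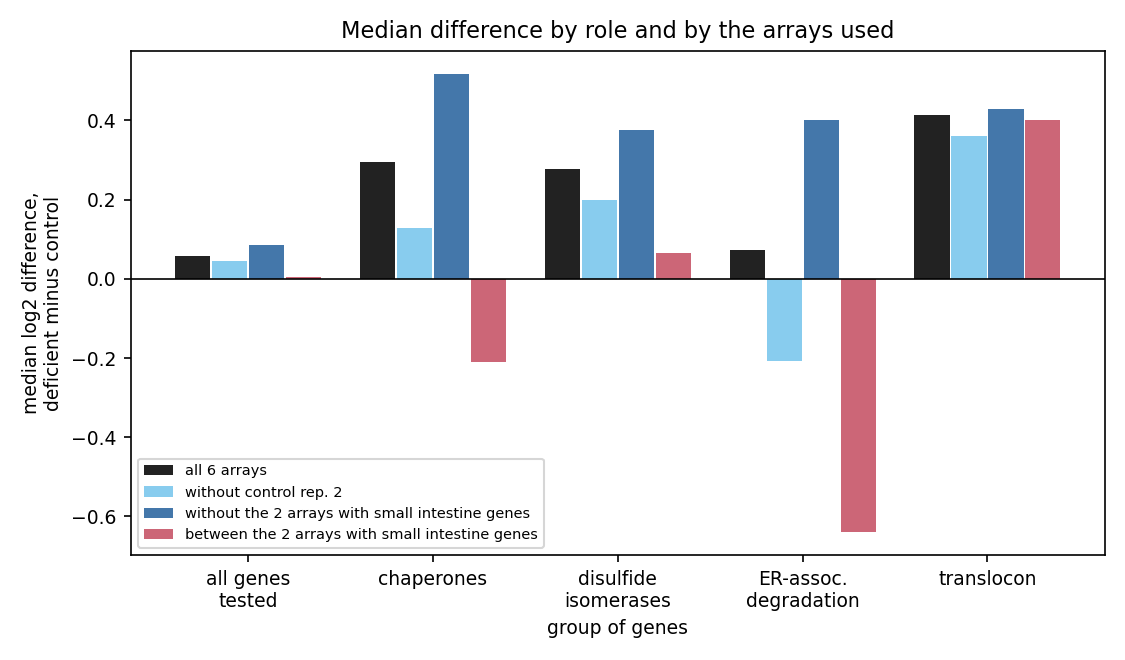
Median log2 difference (deficient minus control) of all genes and of 4 roles, for 4 choices of arrays. The translocon genes stay between 0.36 and 0.43, whereas chaperones and degradation genes are at -0.21 and -0.64 between the 2 Apoa1-high arrays.

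The ubiquitous sensors overlapped between the groups. Ern1, which encodes IRE1 alpha, read 8.03, 7.76 and 8.06 in control and 8.24, 8.19 and 7.76 in deficient samples, a difference of 0.11 ± 0.20 (SE, limma adjusted p 0.905). A dimmer Ern1 probe set went the other way at -0.34, with separate groups. Eif2ak3, which encodes PERK, read 8.48, 8.31 and 8.36 against 8.67, 8.33 and 8.15, a difference of -0.0045 (95% interval -0.47 to 0.46). Atf6 read 8.30, 7.25 and 7.77 against 8.19, 7.90 and 8.21. Here control replicate 2 was again lowest, and the difference of 0.33 ± 0.30 (SE, limma adjusted p 0.806) was 0.065 without that array.

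Ern2 was ordered differently from most members across the arrays. It encodes IRE1 beta, the form of the sensor found in mucosal epithelium and needed for mucin production in goblet cells. It read 7.38, 9.78 and 9.49 in control and 9.0, 8.67 and 7.11 in deficient samples. The lowest values in both groups were those of the Apoa1-high arrays, and control replicate 2, lowest for most members, was the highest here. The difference was -0.62 ± 0.80 (SE, limma adjusted p 0.872), with -0.18 without control replicate 2, -0.80 without those 2 arrays and -0.27 between them. With these 2 arrays as a block the standard error of Ern2 was 0.21 (unadjusted limma p 0.0262, adjusted p 0.333). Without them the unadjusted limma p was 0.0245. Many genes were under 0.05 in these settings, namely 13.4% of all genes with the block and 13.9% without those arrays. Ern2 was among 5 members under 0.05 with the block and among 4 without those arrays. Of 14 goblet cell markers, 9 had the lowest value of each group on its Apoa1-high array, as Ern2 did, and 5 (Tff3, Fcgbp, Clca1, Zg16 and Spink4) did not. Spdef, a transcription factor of goblet cells, read 6.90, 9.77 and 9.79 in control and 9.23, 7.87 and 7.18 in deficient samples. Tff3, a secreted peptide of goblet cells, read 15.20, 14.42 and 14.62 in control and 14.54, 14.83 and 14.997 in deficient samples, highest in each group on its Apoa1-high array. Of the 14 markers 6 were higher in deficient samples, with a median of -0.19. Their summed level ran from 17.22 to 17.74 in control and from 17.14 to 17.68 in deficient samples, on a log2 scale. The part of goblet cell content in the Ern2 values was not tested.

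Of the transcription factors, Xbp1 was the only one of 3 that was higher. Its main probe set read 12.86, 12.30 and 12.87 in control and 12.96, 12.87 and 13.24 in deficient samples. The groups overlapped by a narrow margin, since deficient replicate 2 matched control replicate 3 to 2 decimals, and the difference was 0.34 ± 0.23 (SE, limma adjusted p 0.746). Of the other 3 probe sets of Xbp1, 2 were separate between groups, with differences of 0.37 and 0.18, and the last differed by 0.18 with overlap. The signal is the total transcript; splicing by IRE1 was not analysed here. Atf4, which is controlled mainly in translation, read 10.51, 10.16 and 10.39 against 10.33, 10.26 and 10.40, a difference of -0.021 (95% interval -0.42 to 0.38). Ddit3, which encodes CHOP, read 7.44, 7.97 and 7.33 against 7.44, 7.51 and 6.94, with a difference of -0.28 ± 0.26 (SE, limma adjusted p 0.811). Unlike the chaperones, Ddit3 was highest on control replicate 2.

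Targets of ATF4 and CHOP among the members were mostly near the floor of the arrays. Trib3, a pseudokinase that restrains this response, lay between 3.30 and 3.60 on all arrays and was not tested. Chac1, which degrades glutathione, was above log2 4 only on deficient replicates 1 and 3 (4.08 and 5.41) and was not tested either. Asns, asparagine synthetase, read 8.47, 8.74 and 9.33 in control and 9.47, 9.01 and 9.79 in deficient samples. Its groups overlapped through control replicate 3, and the difference was 0.58 ± 0.31 (SE, limma adjusted p 0.714). A second Asns probe set had separate groups and a difference of 0.97. The difference on the main probe set was 1.32 between the 2 Apoa1-high arrays and 0.21 without them.

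Genes with an element in their promoter did not all follow the control arrays alike. The 10 tested members with ERSE or ERSE-II had a median difference of 0.26, and 7 of them were lowest on control replicate 2. Of 15 tested members whose window held neither, the median was 0.15 and 9 were lowest on that array. Control replicate 1 exceeded control replicate 2 by a median of 0.86 in the first group and 0.35 in the second, with ranges from -0.022 (Canx) to 2.26 (Creld2) and from -0.53 to 1.41. These ranges overlap, and 6 further members without a window in the table ran from -2.40 (Ern2) to 2.28 (Manf).

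Other genes of the secretory pathway, from lists that do not overlap the members, were set beside them. Of 28 tested genes of the translocon, signal peptidase and oligosaccharyltransferase, 26 were higher in the deficient colon, with a median of 0.18. Groups were separate for 6, and 0 had an unadjusted limma p under 0.05. Over all genes 57% were higher, 9.36% were separate and higher, and 5.1% were higher at an unadjusted limma p under 0.05. Sec63, a partner of the channel, was higher by 0.47, and the signal peptidase subunits Spcs3 and Sec11a by 0.38 and 0.36, all 3 with separate groups. Between the 2 Apoa1-high arrays 22 of the 28 were higher (median 0.095), and without control replicate 2 it was 24 (median 0.15). Of 25 other folding and disulfide enzymes, 20 were higher with a median of 0.23. That median was 0.13 without control replicate 2, with 21 higher, and 0.071 between the 2 Apoa1-high arrays, with 16 higher. In all 6 arrays 1 of the 25 had an unadjusted p under 0.05, namely Ero1a, the oxidase that recharges disulfide isomerases, higher by 0.73. Uggt1, which senses misfolded glycoproteins, was higher by 0.34 and the peroxidase Prdx4 by 0.62.

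The other lists of the response had medians on either side of 0, and 2 of the 3 turned with the arrays used. Of 26 further targets of ATF4 and CHOP, 21 were higher, with a median of 0.24. Others went the other way, among them Nupr1 at -1.06 and Vldlr at -0.55, both with overlapping groups. At an unadjusted limma p under 0.05, 3 were higher and 0 lower, or 11.5%, against 7.46% of all genes. Those 3 were Iars, an isoleucyl-tRNA synthetase, higher by 0.60, the transcription factor Cebpb by 1.11 and the serine synthesis enzyme Psat1 by 1.06. Each had separate groups. Iars read 9.45, 9.24 and 9.49 in control and 10.16, 9.93 and 9.89 in deficient samples (limma adjusted p 0.659). Of 19 other genes of ER-associated degradation, 9 were higher with a median of -0.0044. It was 0.085 without the Apoa1-high arrays (12 of 19 higher), -0.14 between them (3 of 19) and -0.089 without control replicate 2. In all 6 arrays Nploc4 was at 0.36, Edem3 at -0.36 and Rnf5 at -0.41. Of 18 other sensors, kinases and ER-bound factors, 7 were higher with a median of -0.099. Without control replicate 2 it was 0.032, with 11 of 18 higher. In all 6 arrays Creb3l4 was at -0.95, Nfe2l2 at -0.47 and Eif2ak1 at -0.21. None of these genes passed the limma test over all genes.

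Markers of other cell types also had medians away from 0. Macrophage and monocyte markers were higher for 16 of 19 tested, with a median of 0.99, and their summed level ran from 13.32 to 13.67 in control and from 13.30 to 14.31 in deficient samples (log2). At an unadjusted limma p under 0.05, 8 were higher and 1, Lyz2, was lower (47.4%, against 7.46% of all genes). Without Lyz2, a choice made after seeing the data, the summed level ran from 12.37 to 13.03 in control and from 13.10 to 14.31 in deficient samples, and the groups did not overlap. Neutrophil markers were higher for 6 of 6 tested of 19 listed, and 7 of the 15 on the array were under log2 4 throughout. A marker high in deficient samples only could pass the filter and then had to be higher, so that count is no separate result. Their summed levels, taken over all 15 without the filter, were 7.67 to 9.85 against 9.22 to 13.75 and overlapped. Plasma cell markers, from cells with a large ER, were lower for 7 of 8 tested, with summed levels of 14.47 to 15.73 against 12.36 to 15.02. Mzb1, a plasma cell cochaperone, was highest on control replicate 1 at 8.31, as were Derl3, Creld2 and Manf, and at 3.40 to 5.59 elsewhere. Sdc1, of the same list, was highest on deficient replicate 2 at 11.49. The plasma cell markers had median deviations from their own means of 1.10, 0.040 and 0.31 in control and -0.027, -0.86 and -0.70 in deficient samples. Those of the members were 0.25, -0.40 and -0.17 in control and 0.14, 0.073 and 0.13 in deficient samples. Fibroblast markers were higher for 12 of 12, with summed levels of 14.33 to 15.57 against 15.06 to 16.32, and 10 of 11 acinar markers of the pancreas were under log2 4 on all arrays. Small intestine enterocyte markers were lower for 10 of 11 tested, at 13.14 to 17.36 in control and 11.24 to 16.68 in deficient samples, with the highest level in each group on its Apoa1-high array. The part of these cells in the differences of the members was not tested.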

How the data were processed

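The authors deposited log2 expression values, 1 per probe set and array, for 45101 probe sets; the submitters' processing notes name GCRMA without version or settings. That the scale is log2 follows from the range of values, 2.25 to 16.2. Probe sets that the platform annotation maps to 1 gene (34958) were used, which gave 18194 genes. For the test, a probe set had to be above log2 4 on at least 3 of 6 arrays, and the kept probe set of highest mean stood for its gene (10491 genes). Genes that are high in 1 group only can pass this filter and then had to differ. Deficient samples were set against controls by limma 3.58.1 under R 4.3.3 (linear model, moderated by eBayes, two-sided, Benjamini-Hochberg over all genes tested, no covariate). The procedure was also run on simulated data, with independent values and shifts larger than the members' median difference. Those data had no shared differences between arrays, so they cannot show how the Apoa1-high arrays or control replicate 2 affect the results. The number of arrays, 3 a group, limits the precision.

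All members were named; per-array values were given for the sensors, transcription factors, Hspa5, Hsp90b1 and members with an unadjusted p under 0.05 or separate groups, and 3 genes of smallest p were named per related list. Other names were chosen after their values were seen. The members and lists were chosen with earlier results of these data known.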

Additional observations from a re-analysis of the deposited data

How the results depend on the processing

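No member was called under any of 18 alternatives with a test, and 0 genes overall except with probe sets without cross-hybridisation suffixes, where 1 was called: Uqcr10, no member. The members' median difference of 0.27 was -0.14 between the 2 Apoa1-high arrays, a comparison of 1 array with 1, and ran from 0.065 (without control replicate 2) to 0.43 (without control replicate 1) when 1 array was left out. The count of members with an unadjusted limma p under 0.05 was 3 in all (7.46% of all genes). With the 2 Apoa1-high arrays as a block it was 5 (4 higher and 1 lower, Ern2), against 13.4% of all genes. With the replicate block it was 0 (4.17% of all genes). When 1 array was left out it was 0 to 7, while the share of all genes ran from 4.11% to 11.4%. The replicate block changed no call. Same-numbered samples were not treated as pairs in the main test, and their deviations from the group means correlated at -0.54, 0.36 and -0.61. The 2 Apoa1-high arrays, which differ in number, correlated at 0.69. Because small intestine genes weigh on these correlations, they cannot decide whether the samples were paired. Between those 2 Apoa1-high arrays the sign turned for Hspa5 (-0.39), Hsp90b1 (-0.21), Atf6 (-0.089) and Ern1 (-0.27); the mean of all probe sets turned Ern1 to -0.11. Eif2ak3 and Atf4, near 0, turned without those 2 arrays (0.16 and 0.020), Eif2ak3 also with median centring (0.0016), and when 1 array was left out they ran from -0.15 to 0.11 and from -0.12 to 0.056. Pdia4, Pdia6, Sec61a1, Sec61b, Ssr1, Xbp1, Ern2 and Ddit3 kept their sign in every alternative that gave a value. The cause of these turns was not tested. Genes near the floor of the arrays, Derl3, Trib3 and Chac1, have compressed differences.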
